A study of Mus musculus with 42 samples.

Results

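RNA made during the last hour of a 4 h recovery from arsenite was measured in 1 library, RC4, and read against 2 libraries of untreated cells, NT. These 3 libraries, of the 42 in the series, were chosen by their labels. The cells were NIH3T3, an established mouse embryonic fibroblast line whose strain the labels give as C57BL/6, although the line is known to derive from Swiss mice. RC4 cells received 250 µM sodium arsenite for 1 h, were washed and grew for 4 h in normal medium. NT cells were not stressed, and were taken at 0 h (replicate 1) and at 4 h (replicate 2). All cells, controls included, had 50 µM 4-thiouridine (4sU) in the medium for 1 h before harvest. A library of cells taken right after the 1 h of arsenite (AS), labelled in the same way, and the flow-through (Ft) of the same NT and RC4 RNAs served as comparisons.

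Cells take up 4sU and use it in place of uridine in RNA under synthesis. RNA that carries it can be biotinylated and captured on beads, so the 4sU fraction holds newly made RNA and the Ft holds mostly RNA that was there before the label. The fraction measures what was made and still present at harvest, so the rate of synthesis and early decay cannot be told apart. Arsenite binds thiols and unfolds proteins. Cells answer through HSF1, which drives chaperone genes, through NRF2, which drives antioxidant genes, and through eIF2α kinases, which slow translation and raise ATF4. 3′READS sequences the 3′ end of polyadenylated RNA, and each read marks the polyadenylation site (PAS) at which a transcript was cut. Reads at all PASs of a gene were summed to give its new RNA, and reads at a proximal (pPAS) and a distal (dPAS) site in the 3′UTR gave its PAS choice.

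The NT libraries held 2513834 and 3960472 PAS reads, and RC4 held 4431949. The files list a cluster of PASs from 5 reads on, so a gene without reads may have had up to 4 at each cluster. Levels are given as reads per 1000000 PAS reads of the library (RPM), which show shares of a library and not molecules per cell. Fewer cells and less RNA per cell cannot be told apart in such data. Of 12200 genes with reads, 9450 reached a mean of 5 RPM over the 3 libraries and were tested. RC4 has no replicate, so the test took its spread from the NT pair and assumed that the RC4 library would vary in the same way. The NT libraries were harvested at 0 h and 4 h, so their spread also holds any difference between these times. NT replicate 2 is the one taken at the same time as RC4. Nothing in the labels says that the NT libraries were grown as independent cultures, so their spread may miss part of that between cultures.

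The fractions and the cells were checked by marker genes. Of 26 immediate early genes, whose mRNAs are short-lived, 24 were higher in 4sU than in Ft in both NT samples, with median log2 ratios of 1.62 and 1.43. The medians of all genes tested were 0.19 and 0.26. Among 50 genes of cytosolic ribosomal proteins, whose mRNAs are stable, 1 was higher in 4sU in both. All 10 fibroblast markers were tested, and 7 of them fell at RC4. The median of their log2 changes was -1.33, against -0.31 for all genes. None of 7 epithelial, 5 endothelial or 6 muscle markers reached the filter. Of the 6 blood cell markers only Cd68, a lysosomal protein of macrophages, did, at 9.55, 7.83 and 15.3 RPM in NT replicate 1, NT replicate 2 and RC4.

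New RNA of 1089 genes rose at RC4 (11.5% of those tested) and that of 2266 fell (24.0%), where a call needed an adjusted p below 0.05 in edgeR's quasi-likelihood test and an RC4 level outside both NT levels. The median log2 change of all genes was -0.31. Genes that rose held 10.5% and 11.2% of the reads in NT replicates 1 and 2, and 29.1% in RC4. Genes that fell went from 25.4% and 24.7% to 10.4%. The 10 genes that rose and had the most RC4 reads held 1.70%, 1.55% and 6.64% of the 3 libraries. They included Hsph1, Il1rl1, Neat1, Ptgs2, Hspe1, Hspa1b, Fth1, Prdx1 and Spp1.

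The split between rises and falls depended on the scaling. With TMM factors, which set most genes level, the median change was -0.02, and 1703 genes rose (18.0%) while 1403 fell (14.8%). The share of calls that were rises was 32.5% with library totals and 54.8% with TMM. All 1089 rises were also called with TMM. Of the 2266 falls 1403 were, and the rest lost the call with TMM. DESeq2, another tool, was run on gene levels with its own median ratio factors, and its median change was -0.01. For a gene not called by DESeq2, scaling and tool therefore cannot be told apart.

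**Figure D1:**
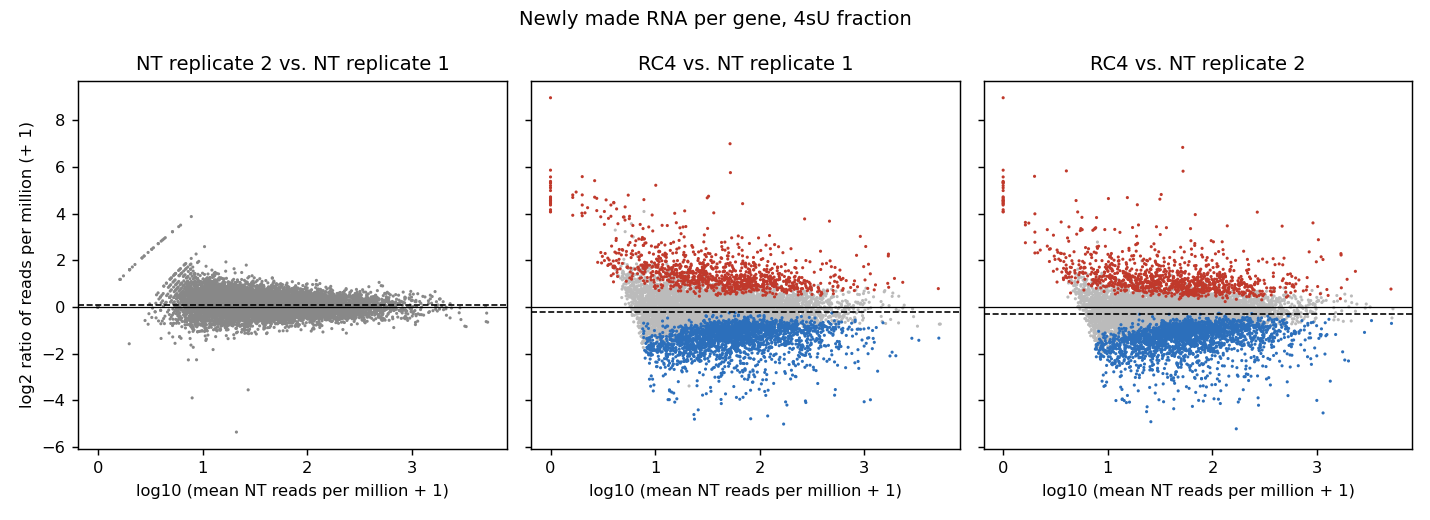
New RNA per gene for 9450 genes: the log2 ratio of RPM (plus 1) between 2 libraries (vertical) by the log10 of the mean NT level plus 1 (horizontal), for NT replicate 2 vs. replicate 1 and for RC4 vs. each NT library. Red points rose, blue points fell, grey points were not called, and dashed lines mark the medians (0.09, -0.23 and -0.31), with a wider spread in both RC4 panels than between the NT libraries.

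The NT pair gives the noise scale. Between the 2 NT libraries 243 genes were past 2-fold higher and 57 past 2-fold lower (log2 ratio of RPM plus 1), and the spread of all genes (SD from the median absolute deviation) was 0.38 on the log2 scale. RC4 was past 2-fold above both NT libraries for 589 genes (6.23%) and past 2-fold below both for 1392 (14.7%).

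The rises went much further than the NT spread for a small set of genes. Among genes with reads in both NT libraries, 151 rose at least 4-fold by the fitted change, and 407 genes with reads in RC4 fell at least 4-fold. A set of 23 genes that rose had no listed read in either NT library, and 18 genes that fell had none in RC4. The 23 passed the filter through RC4 alone, so a rise was their only possible call. Likewise the 18 passed it through NT alone and could only be called as falls. The rule for named genes, the 15 largest fitted rises, picked 15 of these 23, because a fitted fold against 0 is very large. For such genes only a lower bound is given, with 4 unlisted reads at each of the gene's clusters in each library at 0.

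P2rx7, an ATP-gated ion channel gene on chr5, went from no listed read in NT to 2208 reads in RC4 (498 RPM, 4.61 RPM in AS), at least 25.2-fold higher. Of its reads, 90.5% ended in an exon upstream of the annotated last one. The 30 bases that end at its main internal PAS (chr5:123133505-123133534, + strand, NCBIM37) hold AATGAA, a variant of the AATAAA signal, in capitals here.
P2rx7 internal PAS: ccagtctcccagtaAATGAAtttaagtcca
The other 14 were at 22.6 to 57.1 RPM in RC4 and unlisted in both NT libraries. Htatip2 reached 57.1 RPM (at least 23.1-fold higher) and Rnf183, a ubiquitin ligase, 40.6 RPM (at least 32.9-fold). Hspb1, a small heat shock protein, reached 25.3 RPM (at least 20.4-fold) and was unlisted in AS as well. Plb1, a phospholipase, Soat2, which esterifies cholesterol, and Aloxe3, a lipoxygenase, reached 39.7, 22.8 and 30.7 RPM. The others were Bpifc, Serpina9, Gm15247, Prl2c3, Hspa1a, A230028O05Rik, 1110002E22Rik and Nckap1l. Prl2c3 and Hspa1a have near-identical copies. The authors kept only reads that reached a mapping quality limit, so reads that match copies equally well may be missing. The levels of these genes are therefore uncertain.

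The largest rises among genes with reads in both NT libraries are named here by a rule that was added after those values were seen. Hspa1b, an inducible HSP70 (chr17:35093381-35096183), led with 48.1 and 53.8 RPM in NT and 6255 RPM in RC4, a log2 change of 6.94 ± 0.30 (SE, adjusted p = 1.13e-109) or 122-fold. RC4 lay far above both NT values. Reads that match Hspa1a equally well may have been lost to the mapping quality limit or misplaced, so the level of Hspa1b is uncertain. Of its listed reads, 98.5% lay past the annotated end of the gene. Hmox1, heme oxygenase (chr8:77617490-77624495), went from 52.5 and 50.3 to 2888 RPM, 56.2-fold (log2 5.81 ± 0.29).

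Genes outside the chaperone lists were also among the large rises. Procr, a receptor for protein C, went from 7.16 and 11.1 to 302 RPM. Hgsnat, a lysosomal enzyme of heparan sulfate breakdown, went from 32.2 and 30.6 to 889 RPM. Zfand2a, an arsenite-inducible protein that binds the proteasome, went from 29.8 and 31.1 to 786 RPM. Slc7a11, the cystine transporter, went from 17.9 and 10.9 to 304 RPM. Atf3, a stress transcription factor, was at 19.9 and 16.4 RPM in NT and at 361 RPM in RC4. Havcr2, known from immune cells, was at 4.77 and 1.26 RPM in NT, so its 46.7-fold rise to 128 RPM rests on few NT reads.

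The 15 largest fitted falls included genes with no listed read in RC4. Arhgap19, Gdf5 and Kif4, which had 20.3 to 27.1 RPM in NT replicate 1 and 18.4 to 29.3 RPM in replicate 2, had no listed read in RC4 and were at least 28.6-, 24.1- and 8.21-fold lower. Igsf10 (chr3:59120657-59148178) fell from 156 and 180 to 3.84 RPM, a log2 change of -5.44 ± 0.43 (adjusted p = 6.07e-34). Col1a1, the main chain of type I collagen, fell from 918 and 1359 to 57.3 RPM. Ccna2, cyclin A2, fell from 263 and 286 to 14.4 RPM.
The other 9 of the 15 largest falls had log2 changes from -4.92 to -4.21. Plk1, Aspm, Cdca5 and Pif1 act in mitosis and genome upkeep. Cyp1b1 is a cytochrome P450, S1pr3 a receptor for sphingosine 1-phosphate, Atoh8 a transcription factor and Cd248 a surface protein of stromal cells. The other gene was 5730590G19Rik. In RC4, Plk1 and 5730590G19Rik had 5 reads each, Cyp1b1 and Pif1 had 6 and S1pr3 had 7. These counts are near the smallest listed value of 5 reads, and unlisted clusters could hold more. The size of these falls is therefore uncertain.

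**Figure D2:**
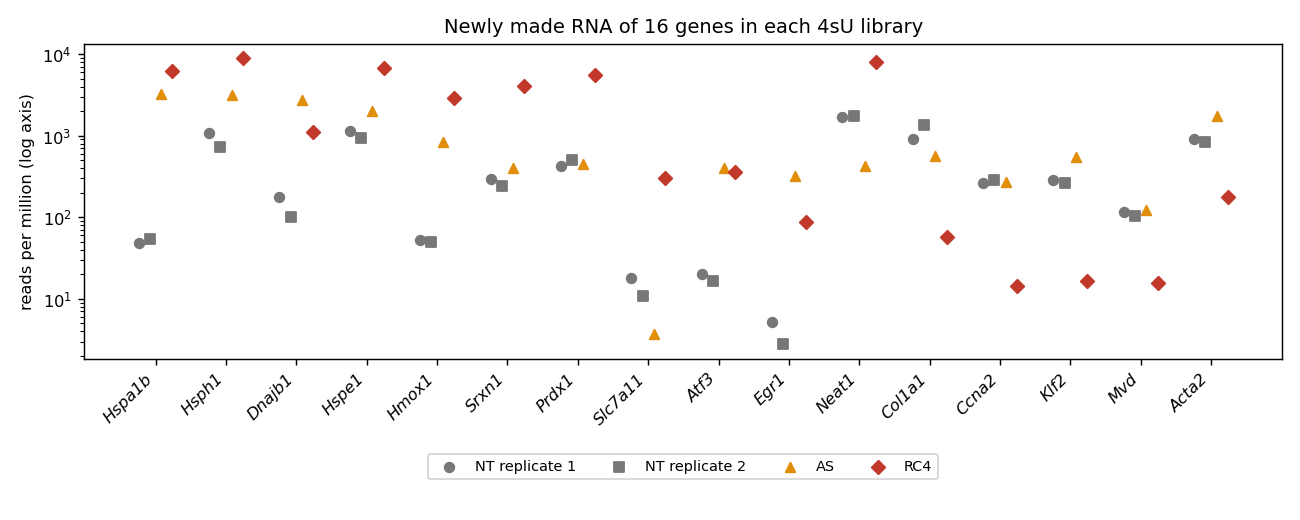
New RNA of 16 genes in RPM (log axis) in each 4sU library: NT replicates 1 and 2 (grey), AS (orange triangles) and RC4 (red diamonds). RC4 lies above both NT points for the first 11 genes and below both for the last 5, and among the first 11 AS lies above RC4 for Dnajb1, Atf3 and Egr1.

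Chaperone genes rose unevenly, by class. The counts of each gene list stand beside all genes tested, of which 11.5% rose and 24.0% fell. In the HSP70 and HSP110 class, 6 of 10 genes tested rose and 1 fell, with a median log2 change of 1.43. Hsph1, an HSP110 that exchanges the nucleotide of HSP70, had 1092 and 732 RPM in NT and 8879 RPM in RC4 (log2 3.28 ± 0.27, adjusted p = 4.88e-32). Of its RC4 level, 8633 RPM ended in exons that the annotation places upstream of the last one. Hspa8, the constitutive HSP70, went from 6.76 and 6.56 to 78.5 RPM, but has many processed copies, so its level is uncertain.

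Co-chaperones of the DNAJ class, which hand clients to HSP70, rose in 7 of 14 genes, and 1 fell (median 0.53). Dnajb1 rose from 175 and 100.0 to 1120 RPM and Dnaja1 from 103 and 125 to 648 RPM. Dnaja4 rose from 4.77 and 3.54 to 75.1 RPM. Dnajb14, a membrane DNAJ of the endoplasmic reticulum (ER), fell from 175 and 203 to 71.3 RPM.

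In the HSP90 class 6 of 13 rose and none fell (median 0.48). Hsp90aa1, the inducible HSP90, rose from 29.4 and 23.7 to 160 RPM, and Hsp90ab1 from 51.7 and 46.7 to 137 RPM. Both have processed copies in the genome. Chordc1 and Ahsa2, HSP90 cofactors, rose 2.99- and 3.08-fold.

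Of 10 genes for small heat shock proteins and BAG cofactors, 4 rose and 3 fell (median 0.01). The share of falls was near the 24.0% of all genes tested, of which 11.5% rose. Cryab, αB-crystallin, rose from 56.5 and 78.5 to 1234 RPM, and Bag3 from 114 and 105 to 347 RPM. Hspb6, a small heat shock protein of muscle, fell from 57.7 and 43.9 to 12.2 RPM. Among 9 chaperonin genes 1 rose, Hspe1, the lid of the mitochondrial chaperonin, from 1130 and 924 to 6808 RPM (log2 2.73 ± 0.26).

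Of the 25 NRF2 targets tested 19 rose and none fell, and the median log2 change was 1.74. Srxn1, sulfiredoxin (chr2:151931252-151937112), which repairs peroxiredoxins, rose from 294 and 240 to 4026 RPM (log2 3.92 ± 0.27, adjusted p = 4.36e-45). Prdx1, a peroxiredoxin, rose from 428 and 496 to 5478 RPM. The 3 genes that handle zinc and cadmium all rose: the metallothioneins Mt1 and Mt2 by 3.55- and 3.24-fold, to 3484 and 3677 RPM, and the zinc exporter Slc30a1 by 2.32-fold.

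Promoters were searched for the letters that HSF1 and NRF2 are known to bind. RefSeq sequences of GRCm38.p6, from 250 bases before to 50 after the gene start, matched 6813 of the genes tested, and both strands were searched. The heat shock element, written here as GAA, TTC and GAA with 2 free bases between each, was in 0.558% of these genes and in 4 of 46 chaperone genes (Hsph1, Dnajb6, Chordc1 and Hspe1). The antioxidant response element, TGACNNNGC, was in 17.6% of genes and in 9 of 20 NRF2 targets, among them Srxn1, Txnrd1 and Prdx1. A match is a description of letters and no evidence of binding. Stretches were sought for a few chosen genes and are shown where a match was found. Hspa1b, Dnajb1 and Hmox1 were among the chosen genes and gave none. The match is in capitals, and on these strands it reads as the reverse complement. In Hsph1 and Srxn1 it begins 36 and 28 bases past the gene start.
Hsph1 promoter, chr5:149636287-149636316, - strand: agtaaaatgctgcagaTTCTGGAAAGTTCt
Srxn1 promoter, chr2:152105541-152105570, + strand: ggcagtgggcaGCTAGGTCAgagtgagaca
Txnrd1 promoter, chr10:82859103-82859132, + strand: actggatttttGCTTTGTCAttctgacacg
Prdx1 promoter, chr4:116685455-116685484, + strand: ccagggaaagcGCTGAGTCAtcccccgtag

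ATF4 targets and other genes of the integrated stress response rose in 11 of 25 cases and fell in 2 (median 0.41). Of all genes tested, 11.5% rose and 24.0% fell. Ppp1r15a, GADD34, which ends the translation block, rose from 12.7 and 22.2 to 146 RPM. Trib3, a pseudokinase that restrains ATF4, rose from 121 and 99.0 to 264 RPM, and Cth, of cysteine synthesis, from 3.18 and 2.78 to 15.3 RPM. CARE, TGATGNAA, a motif that ATF4 is known to bind, was in 6 of 22 promoters of this list and in 2.55% of all. Of 20 aminoacyl-tRNA synthetases, which load amino acids on tRNA, 7 rose and 1 fell (median 0.49). Aars, Rars and Lars rose 2.10-, 2.16- and 2.07-fold, and Vars fell from 135 and 105 to 53.02 RPM, a call that DESeq2 did not make.

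Genes of the ER unfolded protein response moved the other way. Of 19 tested 1 rose and 10 fell, with a median of -0.82 (with TMM 1 rose and 8 fell). Calr, an ER chaperone, fell from 600 and 366 to 162 RPM, and Xbp1, a transcription factor of this response, from 138 and 137 to 50.5 RPM. Sdf2l1 and Syvn1, which serve ER folding and degradation, fell to 0.242 and 0.44 of their NT levels, but were not called by DESeq2.

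Immediate early genes, which growth and stress signals induce within minutes, went both ways: 9 of 26 rose and 8 fell (median 0.19). The share of falls was near the 24.0% of all genes tested, of which 11.5% rose. Egr1, a zinc finger factor, rose from 5.17 and 2.78 to 88.0 RPM, and Ier3 from 543 and 421 to 1796 RPM. Klf2, a Krüppel-like factor, fell from 284 and 259 to 16.5 RPM (log2 -4.04 ± 0.35, adjusted p = 4.61e-28). Srf, the factor that drives many of these genes, fell from 145 and 129 to 34.3 RPM.

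Of 10 MAP kinase phosphatases, which switch off ERK, p38 and JNK, 6 rose and 2 fell (median 1.04). Dusp4 rose from 34.6 and 21.7 to 245 RPM, Dusp1 from 82.3 and 89.6 to 361 RPM and Dusp5 from 15.5 and 15.2 to 64.3 RPM. Of 14 p53 targets 5 rose and 2 fell (median 0.25), where 11.5% of all genes tested rose and 24.0% fell. Mdm2, the ligase that degrades p53, rose from 337 and 421 to 1768 RPM, and Trp53inp1 and Plk2 rose 5.27- and 3.55-fold. Sesn1 fell to 0.402 of its NT level with library totals, a call that was lost with TMM, with DESeq2 and without NT replicate 1 (log2 -1.18). Each fit without 1 NT library took its spread from the NT pair of the Ft.

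Among 21 genes for cytokines, growth factors and COX2, 7 rose and 7 fell (median 0.24). Of all genes tested, 11.5% rose and 24.0% fell. Ptgs2, COX2, which makes prostaglandins, went from 1748 and 1628 to 7933 RPM. Inhba, a subunit of activin, rose 7.40-fold, to 134 RPM. Cxcl12, a chemokine of stromal cells, fell from 65.2 and 67.7 to 7.45 RPM.

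Protein degradation genes rose in part, where 11.5% of all genes tested rose and 24.0% fell. Of 4 ubiquitin genes 2 rose and 1 fell (median 0.83), and the fall was not called without NT replicate 1 or by DESeq2. Ubb rose from 8.75 and 21.5 to 53.3 RPM. Of 30 proteasome subunits 8 rose and 1 fell (median 0.38), and with TMM 15 rose and none fell. Psmd14, a lid subunit that removes ubiquitin, rose from 39.0 and 57.6 to 144 RPM. Of 16 autophagy receptors and AN1 proteins 4 rose and none fell. Sqstm1, p62, rose from 114 and 88.1 to 615 RPM and Gabarapl1 from 88.7 and 75.0 to 203 RPM.

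Of 14 transcription factors that sense stress, 2 rose and 3 fell (median -0.32, and -0.02 with TMM), shares near the 11.5% and 24.0% of all genes tested. Bach1, a repressor of NRF2 targets, rose from 145 and 147 to 426 RPM. Hsf2, a relative of HSF1, rose from 33.0 and 43.4 to 72.4 RPM (log2 0.91, and 0.74 without NT replicate 1, where the call was lost). Nfkbia, the inhibitor of NF-κB, fell from 145 and 136 to 49.4 RPM, and Foxo1 from 25.9 and 23.7 to 8.12 RPM. The call of Foxo1 (log2 -1.60) was lost by DESeq2 and without either NT library (-1.54 and -1.67).

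Cell cycle genes had the lowest median of the lists. Of 33 genes for the cell cycle and DNA replication 26 fell and none rose, with a median of -1.77 (with TMM 21 fell). Ccnb1, cyclin B1, fell from 175 and 176 to 9.48 RPM, and Plk1, a mitotic kinase, from 28.2 and 26.5 to 1.13 RPM, which is 5 reads. Cdc6, which loads the replicative helicase, was unlisted in RC4 and at least 3.19-fold lower, but was not called by DESeq2. CHR, TTTGAA, a cell cycle promoter motif, was in 8 of 26 promoters of the list and in 13.9% of all.

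Cholesterol synthesis and other SREBP2 targets fell in 19 of 21 genes and rose in none (median -1.62), and 19 also fell with TMM. Mvd, of the mevalonate pathway, fell from 117 and 104 to 15.8 RPM (log2 -2.80 ± 0.35, adjusted p = 9.59e-14). Stard4, a sterol carrier, fell from 195 and 223 to 37.7 RPM. Fdft1, squalene synthase, fell from 16.3 and 11.4 to 2.71 RPM, without a call by DESeq2. The sterol regulatory element TCACNCCAC was in none of the 14 promoters found for the list and in 1.23% of all.

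Extracellular matrix genes fell in 16 of 30 cases and 1 rose (median -0.80). Fbn1, fibrillin, fell from 147 and 163 to 32.0 RPM and Lum, which DESeq2 did not call, from 8.75 and 7.32 to 1.35 RPM. Plod2, a lysyl hydroxylase of collagen, was the one that rose, from 3.18 and 3.28 to 29.1 RPM. Of the fibroblast markers, Pdgfrb fell from 191 and 274 to 34.1 RPM, Col1a2 from 500.4 and 646 to 153 RPM and Col3a1 from 309 and 456 to 107 RPM.
Genes of the actin cytoskeleton and SRF targets fell in 11 of 20 cases and rose in none (median -0.77). Acta2, smooth muscle actin, went from 903 and 832 to 178 RPM and Myl9, a myosin light chain, from 59.3 and 52.5 to 8.80 RPM. With TMM 6 of the 20 fell.

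Genes for the nuclear-encoded respiratory chain fell in 13 of 40 cases and rose in none (median -0.68), where 24.0% of all genes tested fell. With TMM 3 of the 40 fell, against 14.8% of all genes. Sdha, a subunit of complex II, went from 181 and 163 to 81.7 RPM, and was not called by DESeq2. Cytosolic ribosomal protein genes stayed close to the median of all genes: of 50 tested 2 fell, and their median was -0.26 with library totals and 0.02 with TMM. These genes have many processed copies, so their levels are uncertain. Glycolysis genes rose in 6 of 11 cases and 1 fell (median 0.69). Hk2, hexokinase, rose from 144 and 143 to 284 RPM, and Pfkp and Pfkl, which encode phosphofructokinases, rose 4.20- and 3.10-fold.

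Genes that process mRNA are given beside the 11.5% of all genes tested that rose and the 24.0% that fell. Of 19 cleavage and polyadenylation factors 1 rose and 2 fell, and with TMM 4 rose and none fell. Cpsf6, a subunit of CFI, rose from 204 and 208 to 384 RPM, while Clp1 and Cpsf2 fell to 0.45 and 0.54 of their NT levels (log2 -1.15 and -0.89) and lost the call with TMM (log2 -0.86 and -0.60). Clp1 was also not called without either NT library (-1.13 and -1.18). Of 26 SR proteins and hnRNPs 3 rose and 3 fell. Of 14 stress granule and AU-rich element proteins 2 rose and 2 fell. Tia1, a stress granule protein, rose from 61.3 and 76.5 to 121 RPM (log2 0.81, and 0.66 without NT replicate 1, where the call was lost) and Zfp36, tristetraprolin, from 119 and 135 to 247 RPM. In mRNA decay 4 of 23 rose, Cnot7 among them at 2.66-fold, and 5 fell. Ribosome biogenesis had 1 rise and 1 fall among 24 genes, and Pol II elongation 2 rises and 1 fall among 16. Both nuclear long noncoding RNAs tested rose: Neat1, the scaffold of paraspeckles, from 1670 and 1718 to 8024 RPM and Malat1, of nuclear speckles, from 72.8 and 84.3 to 485 RPM.

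**Figure D3:**
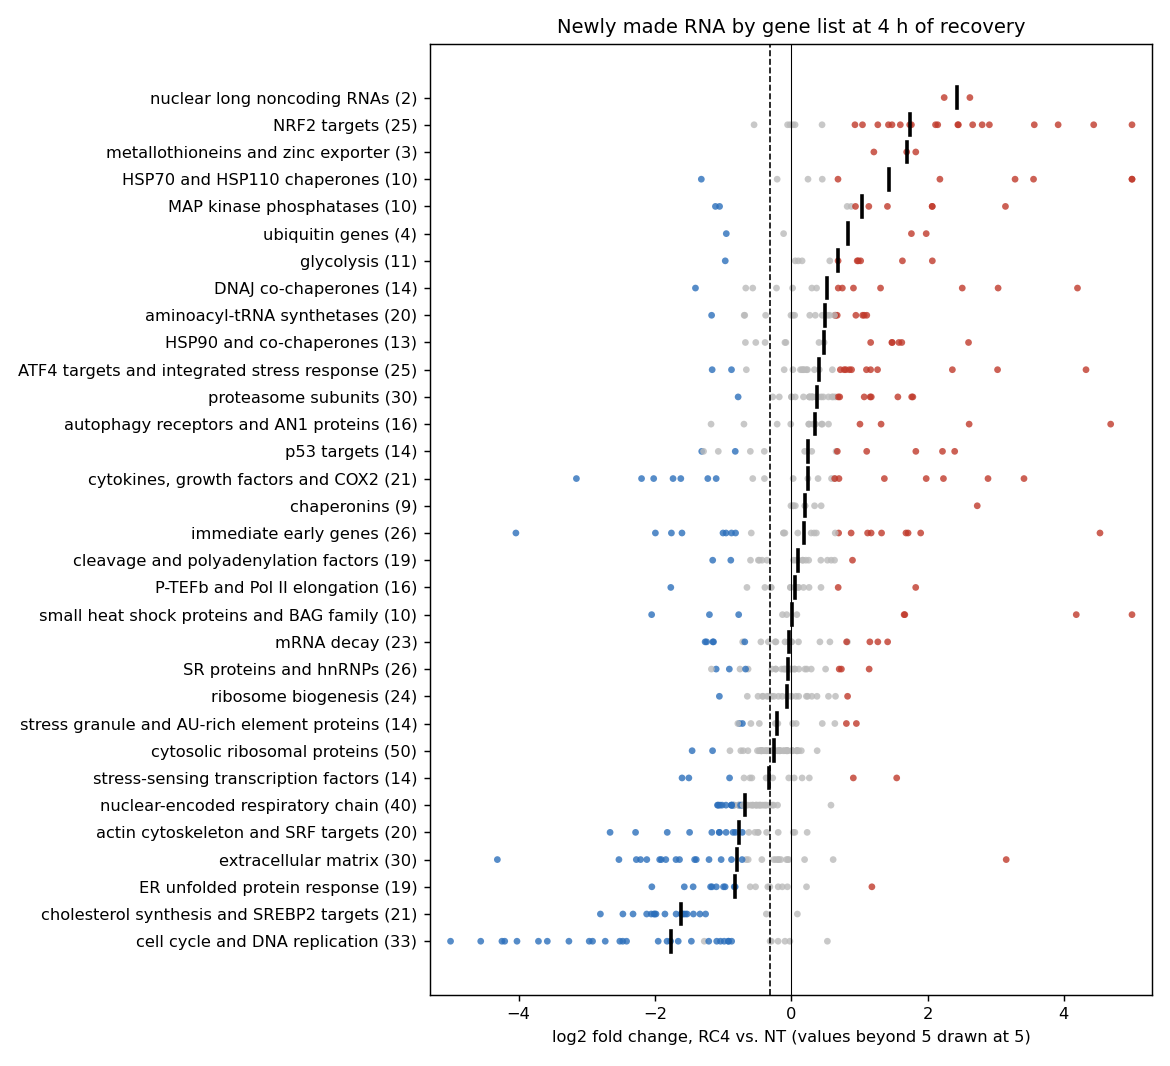
Fitted log2 change of new RNA, RC4 vs. NT, for the members of each gene list (number tested in brackets), ordered by the list's median (black bar). Red points rose, blue points fell and grey points were not called, and the dashed line marks the median of all genes (-0.31), with NRF2 targets at a median of 1.74 and cell cycle genes at -1.77.

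Long genes stood higher than short genes in RC4, but so they did between the NT libraries. In 5 equal parts by gene length, the median log2 ratio of RC4 to NT replicate 1 went from -0.59 in the shortest part to 0.02 in the longest, and to NT replicate 2 from -0.48 to -0.19. NT replicate 2 against replicate 1 went from -0.09 to 0.22. Genes with a single exon rose in 5.67% of 194 cases and fell in 34.5%. Genes with over 20 exons rose in 13.7% of 1323 and fell in 19.5%. Here too the NT libraries differed: the median of NT replicate 2 against replicate 1 was -0.12 for a single exon and 0.24 for over 20, while that of RC4 went from -0.60 to 0.00 against replicate 1 and from -0.46 to -0.22 against replicate 2.

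Recovery was then set against the stress itself, by a direct test of RC4 against AS (1 library each, with the spread of the NT pair). New RNA of 1234 genes was higher at RC4 than at AS (13.1%) and that of 1259 was lower (13.3%). Of the genes that rose against NT, 691 were also higher than at AS and 15 were lower. Of those that fell against NT, 1039 were also lower than at AS and 12 were higher. Both comparisons use the same RC4 library, so these overlaps are partly built in and are no separate support. The AS library held 2170692 PAS reads.

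Of the NRF2 targets 17 of 25 were higher at RC4 than at AS and 1 was lower (median log2 difference 1.28). Prdx1 was at 451 RPM in AS, within the range of the NT libraries, and at 5478 RPM in RC4 (log2 difference 3.60 ± 0.35, adjusted p = 9.20e-22). Srxn1 was at 405 RPM in AS. Slc7a11 was listed at 3.69 RPM in AS, below both NT values, but on 8 reads. It has 11 clusters, and each one unlisted in AS could hold up to 4 reads, so a level below NT is uncertain. Hmox1 was already at 830 RPM in AS. Neat1 was at 430 RPM in AS, below both NT values, and at 8024 RPM in RC4.
Among chaperones, Hsph1 (3188 RPM in AS), Hspe1 (2023) and Cryab (171) were higher at RC4 than at AS. Dnajb1 (2754 RPM in AS) was lower at RC4 (log2 difference -1.30 ± 0.32, adjusted p = 0.00045). For Bag3, Hsp90aa1 and Atf3 the difference between the time points did not pass the test (adjusted p = 0.815, 0.339 and 0.737).

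Immediate early genes were lower at RC4 than at AS in 16 of 26 cases and higher in 2 (median -1.87). Egr1 was at 323 RPM in AS, Dusp1 at 1090 RPM and Zfp36 at 1043 RPM, each higher than in RC4. Klf2 was at 545 RPM in AS, above NT, and at 16.5 RPM in RC4, below NT. Acta2 showed the same order with 1724 RPM in AS. Of the cholesterol genes, 20 of 21 were lower at RC4 than at AS (median -2.47), and of the cell cycle genes 22 of 33 were lower and none higher. Ccna2 (268 RPM in AS) and Mvd (123 RPM) were close to NT in AS. The metallothioneins, at 2216 and 2561 RPM in AS, did not pass the test between the time points (adjusted p = 0.114 for Mt1 and 0.222 for Mt2).

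Whether the RC4 change was particular to newly made RNA was tested as the difference between the change in 4sU and in Ft. The fractions of a sample come from the same RNA. With a block for the sample, 313 genes had a higher change in 4sU than in Ft (3.31%) and 247 a lower one (2.61%). Without the block no gene passed in either direction (0.0%), with 1165 genes at an unadjusted p below 0.05. DESeq2 was not run for this comparison. Of the 164 genes named by the rules, 9 had a higher change in 4sU and 29 a lower one. The rules rank genes mainly by their change in 4sU, so this split is no result about new RNA. The 29 hold genes that rose less in 4sU as well as genes that fell further there.
Some genes moved further up in new RNA than in Ft. Prdx1 rose more in 4sU than in Ft, where it went from 1446 and 1583 to 6731 RPM (log2 difference 1.42 ± 0.19, adjusted p = 0.000187). Tia1 had 41.9 and 48.2 RPM in the NT Ft and 17.6 RPM in the RC4 Ft, so it was lower there while its new RNA rose (difference 2.17 ± 0.31). Hgsnat also rose more in 4sU (0.94 ± 0.22).
Several stress genes rose less in 4sU than in Ft. Atf3 went from 6.13 and 3.02 to 496 RPM in Ft (difference -2.47 ± 0.34, adjusted p = 0.000233). Its NT levels in Ft rest on few reads, so the size of this difference is uncertain. Dnajb1, Ptgs2 and Hsph1 had differences of -1.61 ± 0.22, -1.34 ± 0.20 and -1.001 ± 0.198. Hspa1b reached 7606 RPM in the RC4 Ft and Hmox1 2521 RPM, with differences of -0.95 and -1.04. Ccna2, Igsf10 and Stard4 fell further in 4sU than in Ft, with differences of -1.15, -2.46 and -1.38.

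PAS reads were also divided by where in or near genes they lay. Last exons held 64.9%, 66.0% and 65.6% of PAS reads in NT replicate 1, NT replicate 2 and RC4, and sites up to 4000 nt past an annotated end held 16.05%, 16.47% and 16.03%. These shares count mitochondrial reads in the total, which differed between the libraries. Without mitochondrial reads, last exons held 69.91%, 69.3% and 67.7%, and sites past an annotated end 17.28%, 17.3% and 16.55%. RC4 was then below both NT values in both classes. Introns held 2.496%, 2.67% and 3.22% of all PAS reads, so RC4 lay above both NT values. The Wilson 95% intervals were 2.48 to 2.51%, 2.66 to 2.69% and 3.21 to 3.24%, and cover counting error only. Without the 2 genes that added most, Sdccag8 and Nif3l1, the intron shares were 2.28%, 2.45% and 2.87%. In Ft they were 2.17%, 2.23% and 2.04%, so RC4 was the lowest there, and in AS new RNA the share was 2.15%. The number of genes with a listed intronic PAS was 1604, 2160 and 2822, a count that grows with depth. Upstream exons held 3.497%, 3.56% and 4.53%. Without Hsph1 and Il1rl1 these shares were 2.92%, 3.01% and 2.85%, so RC4 was then the lowest.
Intergenic PASs held 4.15%, 4.75% and 5.55%. The one that rose most, at position 102466807 of chr7 on the - strand, had 46, 92 and 5627 reads (18.3, 23.2 and 1270 RPM). It lay more than 1000000 nt from the nearest protein-coding, lincRNA or processed transcript gene upstream on its strand. Genes of other types, pseudogenes among them, were not searched, so the site may lie in one. Mitochondrial RNA held 7.15%, 4.77% and 3.11%, and 7.58% in AS, and was left out of the gene tests. Both 0 h libraries (NT replicate 1 and AS) stood above both 4 h libraries (NT replicate 2 and RC4). The share thus differed between the NT libraries too. With 1 NT library at each time, harvest time cannot be told apart from other differences between libraries. In Ft the shares were 3.22%, 3.17% and 2.82% in NT replicate 1, NT replicate 2 and RC4. An effect of arsenite was not tested. With 1 recovery library and 2 controls an exact permutation test cannot go below p = 0.333, so no test is given for these shares.

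Cells can end the same transcript at different PASs. Use of the pPAS gives a short 3′UTR and use of the dPAS a long one, whose extra part, the aUTR, can carry binding sites for proteins and miRNAs. The change between samples is given as RED, the log2 ratio of dPAS to pPAS reads in RC4 minus that in NT, so a value below 0 is a shift to short 3′UTRs. Of 6861 genes with a PAS pair, 3561 had both isoforms above 5 reads in all 3 libraries.

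New RNA at RC4 ended more often at the pPAS. The median RED was -0.36 against NT replicate 1, with 67.1% of genes below 0, and -0.44 against NT replicate 2, with 75.1% below 0. The NT libraries differed by 0.09, with 43.3% of genes below 0. With 1000000 reads sampled 20 times from each library the medians were -0.360 ± 0.014 (SD), -0.444 ± 0.020 and 0.076 ± 0.015. AS against the same NT libraries had medians of -0.35 and -0.43, over 3153 genes. RC4 in Ft had -0.48 and -0.49 against the NT Ft libraries, over 2799 genes.

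By gene, 578 had shorter 3′UTRs at RC4 (16.2%) and 39 had longer ones (1.1%), by Fisher's exact test (p below 0.05) with a change of over 5 percentage points in the same direction against both NT libraries. This test compares the reads of libraries and leaves out the spread between replicates. Between the NT libraries it called 184 genes shorter (5.17%) and 339 longer (9.52%) in replicate 2. Against 1 NT library alone it called 817 shorter and 150 longer (replicate 1) or 981 and 79 (replicate 2), and 6 genes went in opposite directions. A model that takes in the spread of the NT pair (edgeR, isoform by treatment) called 74 shorter (2.08%) and 2 longer (0.0562%).

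**Figure D4:**
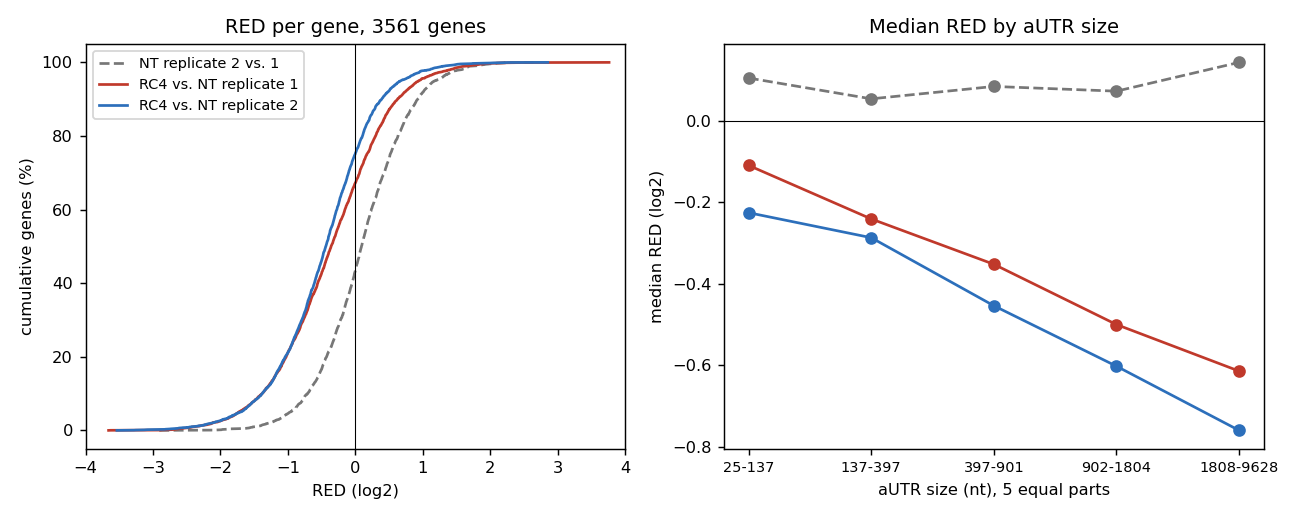
Left, cumulative share of 3561 genes (%) by RED (log2) for RC4 vs. each NT library and for NT replicate 2 vs. 1. Right, median RED in 5 equal parts by aUTR size (nt), where the RC4 lines fall from -0.11 and -0.23 in the shortest part to -0.61 and -0.76 in the longest and the NT line stays between 0.05 and 0.14.

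RED differed with the distance between the PASs. Pairs 25 to 137 nt apart had medians of -0.11 and -0.23 against NT replicates 1 and 2, those 397 to 901 nt apart -0.35 and -0.45, and those 1808 to 9628 nt apart -0.61 and -0.76. The NT libraries differed by 0.05 to 0.14 in all parts. Shortened genes had a median aUTR of 1325 nt and lengthened genes one of 753 nt, against 498 nt for genes in neither set. In shortened genes the median share of dPAS reads went from 70.9% and 69.9% in NT to 50.0% in RC4.

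AATAAA or ATTAAA, the common signals that CPSF binds, lay within 45 nt upstream of 69.7% of pPASs and 80.9% of dPASs in all pairs. The shares were 77.8% and 90.0% in shortened genes and 74.4% and 82.1% in lengthened ones. Median REDs for pPASs with such a signal (2481 genes) were -0.37 and -0.45, and without one (1080 genes) -0.33 and -0.42. By gene level, they were -0.39 and -0.51 where new RNA rose (407 genes), -0.37 and -0.43 where it fell (812 genes) and -0.35 and -0.43 where it was not called (2341 genes).

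The 10 most shortened genes, ranked by the smaller RED of the 2 comparisons, included Usp46, 5430411K18Rik, Oxsr1, Nans, Slc7a1, Golgb1, Fbxw8, Ptpn14 and Slit3. All 10 also passed the model (adjusted p from 0.0138 to 0.0456). Oxsr1, a kinase of osmotic stress and ion transport, had 69.1% of 97 reads at the dPAS in NT replicate 1 (Wilson 95% interval 59.3 to 77.4%) and 73.2% of 194 in replicate 2 (66.6 to 78.9%). In RC4 it had 26.0% of 739 (22.9 to 29.3%), and in AS 52.9%. The RC4 interval lay clear of both NT intervals, and the REDs were -2.67 and -2.96. Usp46, a deubiquitinase, went from 72.1% and 74.3% to 21.6%, on 37 reads in RC4. Nans, of sialic acid synthesis, went from 47.5% and 47.5% to 12.5%.

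In some of these genes 1 isoform held most reads in NT. Slc7a1, an arginine transporter, went from 98.9% and 98.7% to 93.2%, on 6 and 8 pPAS reads in NT. Ptpn14, a phosphatase, and Slit3, a guidance ligand, went to 89.2% and 85.0% (from 97.5% and 97.9%, and from 97.6% and 96.2%), and Fbxw8, of a ubiquitin ligase, went from 10.8% and 10.9% to 2.23%. With a limit of 10 percentage points Slc7a1, Ptpn14 and Fbxw8 were not called. Golgb1, a Golgi tether, moved further, from 91.2% and 94.3% to 65.7%.

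The 30 bases that end at the PASs of some of these genes are shown for how the signals of pPAS and dPAS differ within a gene (NCBIM37, all in last exons, signals in capitals). In such windows AATAAA or ATTAAA is found at 47.1% of all 42913 3′UTR PASs. Slc7a1 and Golgb1 had AATAAA at both sites, and Oxsr1 had ATTAAA at its pPAS.
Oxsr1 pPAS, chr9:119149788-119149817, - strand: gtagcaATTAAAgttgattgttcagctgga
Oxsr1 dPAS, chr9:119147556-119147585, - strand: tcAATAAAgagtaaattgtccttaatgata
Slc7a1 pPAS, chr5:149140300-149140329, - strand: atcctAATAAAagcttactgttttgttggc
Slc7a1 dPAS, chr5:149138986-149139015, - strand: acgctAATAAAccctgtctggcttccacaa
Golgb1 pPAS, chr16:36932350-36932379, + strand: gatggttccAATAAAcacagtaatttggaa
Golgb1 dPAS, chr16:36933138-36933167, + strand: tgtaaaatAATAAAattattttcagaataa

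The 10 most lengthened genes were Zfp207, Prpf4b, Mfap1b, Snx21, Capzb, Gspt2, Tesk1, Ift74, Ulk2 and Vps4a, and only the first 2 passed the model (adjusted p = 0.0227 and 0.0256). Zfp207, a zinc finger protein of the spindle, had 26.3% of its reads at the dPAS in NT replicate 1 and 50.3% in replicate 2, so the NT libraries themselves differed, and 82.9% in RC4 (80.4 to 85.1%). Prpf4b, a splicing kinase, had 21.2% and 21.0% in NT, which were close, and 43.9% in RC4 (41.6 to 46.3%). For the other 8, adjusted p was from 0.122 to 0.243, and Gspt2, Tesk1 and Ulk2 were lost when the p of Fisher's exact test was adjusted. Both genes have AATAAA at each site, and their dPASs lie past the annotated end.
Zfp207 pPAS, chr11:80209719-80209748, + strand: tgtccacgtAATAAAactcagttaccaata
Zfp207 dPAS, chr11:80219347-80219376, + strand: tttattaaaAATAAAaatttcccacacaaa
Prpf4b pPAS, chr13:34994716-34994745, + strand: actagatAATAAAgtcttttgtgaacaagg
Prpf4b dPAS, chr13:34997904-34997933, + strand: aagcttAATAAAgtgtgcctcttgctacca

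**Figure D5:**
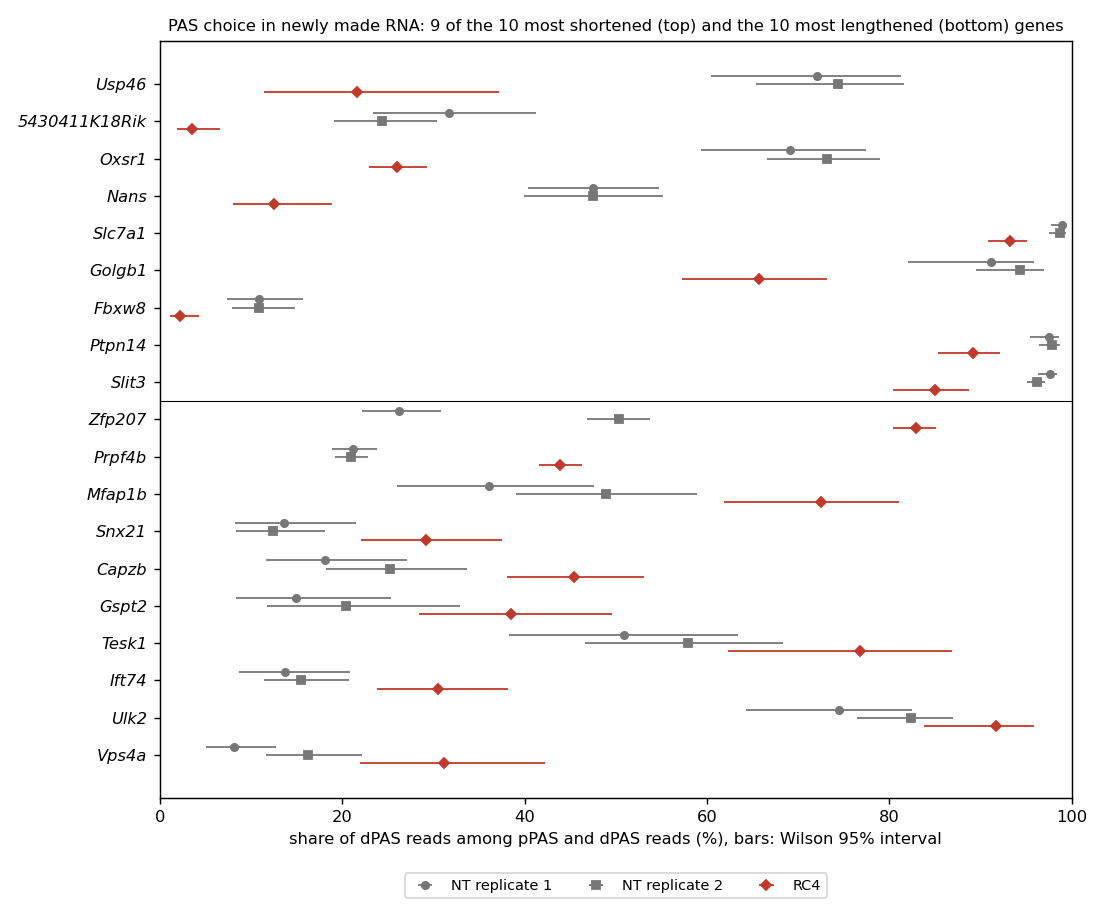
Share of dPAS reads (%) in NT replicate 1, NT replicate 2 and RC4 for 9 of the 10 most shortened and the 10 most lengthened genes, with Wilson 95% intervals as bars. In the upper set RC4 lies left of both NT points and in the lower set right of both, with Oxsr1 moving from 69.1% and 73.2% to 26.0% and Prpf4b from 21.2% and 21.0% to 43.9%.

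Of the genes that the study named for their 3′UTR isoforms, 7 had a tested pair. Because the study chose them on data of this series, they are no independent sign of the direction. Dnajb1, Timp2, Nmt1 and Rpl22 were called shortened by Fisher's exact test, though none of the 4 passed the model in edgeR (adjusted p from 0.0527 to 0.281). With DESeq2 Dnajb1 passed it (adjusted p = 0.0468) and the other 3 did not (0.301 to 0.498). In Fisher's test Dnajb1, Timp2 and Rpl22 were not called with a limit of 10 percentage points. Dnajb1 went from 95.4% and 91.6% at the dPAS to 83.1% while its new RNA rose 8.19-fold. Timp2, an inhibitor of metalloproteinases, went from 88.6% and 91.3% to 82.7% while its new RNA fell from 793 and 720 to 198 RPM. Nmt1, an N-myristoyltransferase, went from 79.8% and 81.1% to 69.1%. Fam49b, at 14.3%, 16.02% and 13.4%, had a p of 0.888 and 0.456 against the NT libraries by Fisher's exact test. For Hspa4l, an HSP110, the direction depended on the control: RC4 had 54.2% at the dPAS, between the 46.0% and 66.9% of the NT libraries.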

How the data were processed

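The authors trimmed 3′READS reads (cutadapt), mapped them to mm9 (Bowtie2) and kept reads that reached a mapping quality limit. They deposited raw counts of PAS reads per cluster, not normalized, with clusters below 5 reads left out. The labels give no tool versions. Here, clusters within 24 nt were joined over 38 libraries and assigned to GENCODE vM1 genes on NCBIM37, the same assembly as mm9: exons, introns, or up to 4000 nt past the end. Only protein-coding, lincRNA and processed transcript genes were used, so sites in genes of other types count as intergenic or antisense. Genes with a mean of at least 5 RPM were fitted with edgeR 4.0.16 (quasi-likelihood, library totals, Benjamini-Hochberg) in R 4.3.3. Its prior degrees of freedom were infinite, so all genes shared 1 trended spread. The SE of a fitted change was the absolute log2 change divided by the square root of its F statistic. DESeq2 1.42.0, with its own median ratio factors for gene levels, was an alternative, and Fisher's exact tests used scipy 1.17.1. RPM values had a pseudocount of 1 in log2 ratios. The code was tested on simulated data.

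Samples were grouped by their labels. The 4sU and Ft fractions of a sample come from the same RNA, so the block in the 4sU and Ft comparison follows the design. Across genes, the differences between the NT samples in 4sU and in Ft had a correlation of 0.218. Depth limits low genes: 5 reads is the smallest listed value. The members and gene lists were chosen with earlier results of these data known. Named genes were the 15 largest rises and falls with at least 100 reads, up to 4 per list by size of change, and the 10 most shortened and lengthened pairs (at least 50 pPAS and 50 dPAS reads). Each named gene's own alternatives were the scaling, the filter, the tool, the gene region, the listing minimum and each NT library left out. Some genes that these rules pick are not reported here.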

Additional observations from a re-analysis of the deposited data

Results flagged for a closer look

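A direct test between time points found 1234 genes whose new RNA was higher at RC4 than right after arsenite and 1259 whose new RNA was lower (edgeR, 1 library of each, adjusted p below 0.05). A test between fractions, with a block for the sample, found 313 genes whose RC4 change was higher in 4sU than in Ft and 247 whose change was lower. Both rest on a single RC4 library in each fraction. No cause was tested for either.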

How the results depend on the processing

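Rises (1089) and falls (2266) against NT became 1703 and 1403 with TMM and 1686 and 1374 with median ratio factors. DESeq2, which also used median ratio factors, called 915 and 630. Leaving out 1 NT library gave 847 to 1147 rises and 2038 to 2059 falls. These fits took their spread from the 2 NT Ft libraries, since 1 NT and 1 RC4 library leave none in 4sU, and assume that the 4sU libraries vary like them. Past 2-fold of both NT libraries, 589 genes were higher (958 with median ratio factors, 705 to 1008 with 1 NT library left out) and 1392 lower (888 at a mean of 20 RPM, 874 with median ratio factors, 923 with a pseudocount of 5, 1826 to 1879 with 1 NT library left out). Shortened genes (578) were 377 at over 10 percentage points and 817 to 981 with 1 NT library left out. Lengthened genes (39) were 20 at over 10 points, 20 with Benjamini-Hochberg adjustment, 25 at over 20 reads and 79 to 150 with 1 NT library left out. The model's 74 and 2 became 186 and 6 at over 20 reads. The median RED, on average -0.40, went from -0.36 to -0.44 with 1 NT library left out. With 1 listing minimum for all libraries, the RC4 shares were 2.97% in introns, 1.37% antisense within genes and 0.119% upstream antisense, against 3.22%, 1.48% and 0.147%. The cause of these changes was not tested.

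The difference between 4sU and Ft had 0 genes in either direction without pairing, 313 and 247 with the replicate block that pairs the fractions of a sample, and 1 lower gene with TMM.

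Of 1598 values of named genes under an alternative, 80 lost their call and the others kept it, and none reversed. Among named pairs 1 value reversed: the mean RED of Hspa4l, -0.15, was 0.47 without NT replicate 2 (-0.77 without replicate 1). With 1 RC4 library, no result has a check of its recovery value by a replicate.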
